A study of Mus musculus with 17 samples.

Results

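Gm14532 and Gm13844 are a pair of long intergenic noncoding RNA (lincRNA) genes that lie end to end on the + strand of mouse chromosome 6, upstream of the protein-coding genes Mkln1 and Podxl. These 4 genes, of 36293 listed in the bulk RNA-seq files and 37608 listed in the single-nucleus files, were taken by name. The lincRNAs were chosen by the bulk comparison of stressed and control mice, where they ranked 1 and 2 of 18394 genes by p, and Mkln1 and Podxl were taken by position as their coding neighbours (mm10). The bulk change of the lincRNAs is therefore given below as a description, with no test, whereas the single-nucleus values come from other mice. All 17 mice were C57BL/6 per the labels (C57Bl/6J in the study's methods) and, per the study, male, and none carried a transgene or deletion. The bulk data came from nuclear RNA of medial prefrontal cortex (mPFC) punches of 4 control mice and 5 mice exposed to chronic unpredictable stress (CUS), all at postnatal day 90. The sNucDrop-seq data, which tag the RNA of single nuclei in droplets, came from whole neocortex of 4 control and 4 CUS mice at postnatal day 80. CUS mice received changing stressors for 12 days from an age of 9 to 10 weeks, and control mice were handled daily in a separate room. Per the labels, tissue was taken 24 h after the last stressor. The study's methods instead place the harvest of the bulk mice 24 h after their final behavioral test. If so, the time since stress differed between the data sets. Housing room and stress thus cannot be told apart, nor can tissue, age, testing, time since stress and assay between both data sets.

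A lincRNA is transcribed and often spliced like an mRNA but holds no long reading frame. Many stay in the nucleus, so nuclear RNA is a favourable material for them, and many are detected in few cells at a time. No role is stated here for Gm14532 or Gm13844. Mkln1 codes for muskelin, a subunit of the CTLH E3 ubiquitin ligase, which in neurons is also known to link GABA-A receptors to their transport. Podxl codes for podocalyxin, a sialylated membrane protein of the CD34 family that is typical of endothelial cells and podocytes and is also found on neurons.

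Gm14532 (ENSMUSG00000086931) spans chr6:31356743-31372369 and Gm13844 (ENSMUSG00000086855) spans chr6:31372895-31383877, so only 525 bases separate them. Mkln1 (ENSMUSG00000025609) starts 14.9 kb further on, at chr6:31398735-31516811 on the same strand. Podxl (ENSMUSG00000025608) lies at chr6:31519488-31563981 on the − strand, with its 3′ end 2.68 kb past the 3′ end of Mkln1. Between the lincRNAs and Mkln1 runs a further lincRNA gene that is not among the 4. Mkln1os (chr6:31366885-31398773, − strand) starts beside the Mkln1 promoter, covers all 10983 bases of Gm13844 on the other strand and reaches into 35.1% of Gm14532. In GENCODE vM21 (GRCm38), whose spans of all 5 genes match those in the bulk files, no exon of either + strand lincRNA shares a base with an exon of Mkln1os. On the far side of Gm14532, 19.3 kb away, ends 2210408F21Rik (chr6:31220351-31337404, + strand, a processed transcript).

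The spliced transcripts are shown because the results turn on these RNAs. The annotation gives each lincRNA a single transcript, of 279 bases in 2 exons for Gm14532 and of 581 bases in 3 exons for Gm13844. To show the exon borders, exon 2 is in capitals (95 bases in Gm14532, 79 in Gm13844), and of Gm13844 the 300 bases at the 5′ end are given.
Gm14532-201: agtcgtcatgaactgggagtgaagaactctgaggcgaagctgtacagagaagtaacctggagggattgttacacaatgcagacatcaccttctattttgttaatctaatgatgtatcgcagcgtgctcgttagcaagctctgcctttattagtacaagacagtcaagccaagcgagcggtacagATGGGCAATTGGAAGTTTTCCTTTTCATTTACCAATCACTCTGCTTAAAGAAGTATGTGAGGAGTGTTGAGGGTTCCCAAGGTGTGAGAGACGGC
Gm13844-201: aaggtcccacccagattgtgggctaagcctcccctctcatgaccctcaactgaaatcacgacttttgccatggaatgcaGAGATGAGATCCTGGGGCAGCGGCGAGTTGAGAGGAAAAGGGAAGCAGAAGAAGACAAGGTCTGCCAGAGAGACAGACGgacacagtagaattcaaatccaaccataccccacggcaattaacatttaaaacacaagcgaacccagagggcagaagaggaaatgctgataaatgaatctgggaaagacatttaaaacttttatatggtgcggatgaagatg
Mkln1 and Mkln1os start head to head, and their RefSeq promoter windows (GRCm38.p6, 250 bases before to 50 after the start) share 154 bases. The Mkln1 window (chr6:31398578-31398877, + strand) is shown because it is the shared start of this antisense pair. The capitals mark AAGATGGC, the core of the site bound by YY1, the chromatin factor on which the study centres.
Mkln1 promoter: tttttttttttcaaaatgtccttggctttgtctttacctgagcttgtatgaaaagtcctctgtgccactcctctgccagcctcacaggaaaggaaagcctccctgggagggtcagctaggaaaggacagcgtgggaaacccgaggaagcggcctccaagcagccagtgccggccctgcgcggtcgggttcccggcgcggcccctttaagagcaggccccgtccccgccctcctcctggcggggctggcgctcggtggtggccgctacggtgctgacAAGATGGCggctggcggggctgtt
These letters were found once in this window, from position 277 on the strand shown, and lie in the part shared with the Mkln1os window. On either strand they occur in 903 of 32851 promoter windows of the same length (2.75%), and this match is a description of the letters only. The table holds a promoter for 1 of the 4 genes.

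Bulk libraries held 26188825 to 30525015 reads on genes per mouse. The nuclei numbered 40000 barcodes, of which 31486 passed the cuts on genes and mitochondrial reads. The doublet cut removed 15.2% of these, and the study kept more nuclei under a doublet cut of the same value. The 26698 kept nuclei had a median of 2010 UMIs (unique molecular identifiers, each standing for 1 captured RNA molecule), with 1935 to 4235 kept nuclei per mouse. Mice of a group differed by more than counting error in both data sets (chi-square per degree of freedom of at least 3.04 in bulk and 2.91 in nuclei), so all libraries were treated as separate. Only 50 barcode sequences occurred in more than 1 mouse. Neuron markers were abundant in every bulk library, and no marker gene was at 0 in every mouse. Striatal markers were also present: their 8 genes summed to 678 to 1166 CPM (counts scaled to 1e6 per library) in bulk control mice and to 1163 to 1405 CPM in CUS mice, yet the median log2 fold change of the 8 was -0.83 and 1 was called, as higher. In nuclei the mean sum was 1024 CPM in control and 893 CPM in CUS mice.

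Gm14532 was measured at 21.6, 20.5, 25.1 and 24.2 CPM in the 4 bulk control mice, after scaling of the libraries with TMM factors. In the 5 CUS mice it was measured at 41.1, 43.0, 42.6, 41.3 and 39.1 CPM. All CUS mice were thus above all control mice, with a wide gap between the groups. Such a separation was found in 4.06% of all tested genes, and these values are the ones that chose the gene. The means were 22.9 ± 2.16 CPM (SD, n = 4) and 41.4 ± 1.54 CPM (SD, n = 5), a fitted log2 fold change of 0.86 ± 0.07 (SE), or 1.81-fold. Behind these values stood 572 to 737 reads per control mouse and 1091 to 1267 reads per CUS mouse.

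Gm13844 was measured at 10.3, 10.1, 9.89 and 8.84 CPM in control mice. In CUS mice it was measured at 18.9, 18.5, 18.6, 19.5 and 16.2 CPM. Again the groups did not overlap, and the lowest CUS mouse was far above the highest control mouse. The fitted log2 fold change was 0.91 ± 0.08 (SE), or 1.88-fold, from means of 9.79 ± 0.656 CPM and 18.4 ± 1.26 CPM (SD, n = 4 and 5). Of the 18394 genes tested, 3.29% passed an FDR of 0.05 in edgeR's quasi-likelihood test and 1.16% did so with higher levels in CUS mice. Both lincRNAs are among them by the way they were chosen, so nothing is read from this. By size of change, Gm14532 ranked 57 and Gm13844 ranked 37 among the genes tested.

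**Figure D1:**
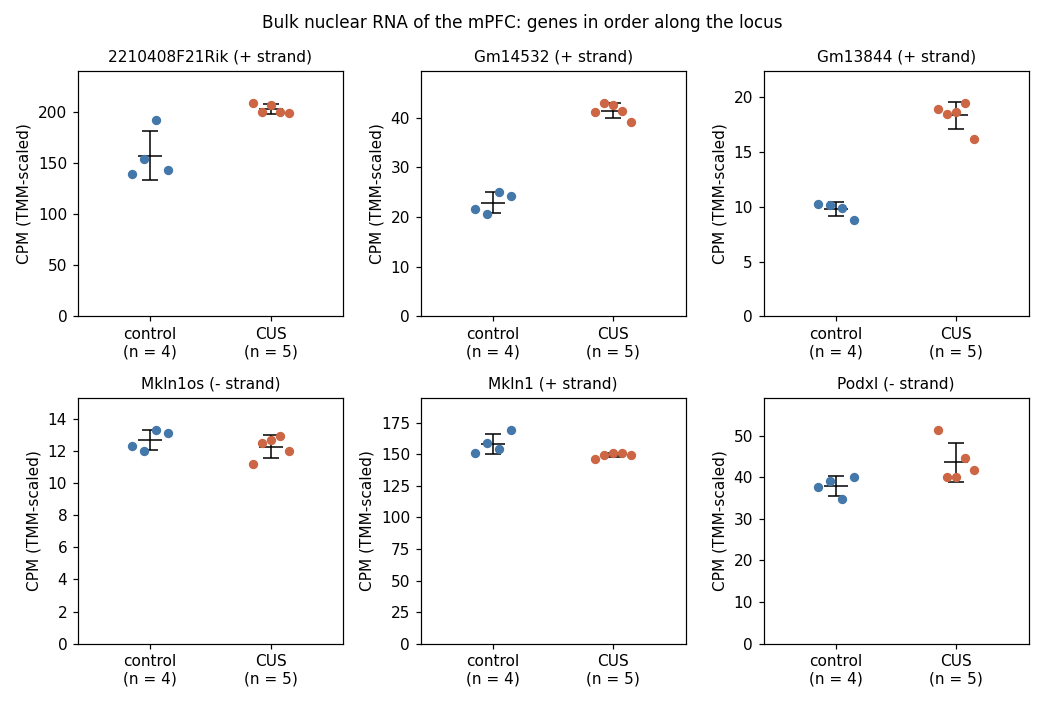
TMM-scaled CPM (y axis, from 0) of 6 genes in order along the locus, each dot a bulk mouse (blue, 4 control mice; orange, 5 CUS mice), with bars for mean and SD. Gm14532 moved from about 22.9 to 41.4 CPM and Gm13844 from 9.79 to 18.4 CPM, while Mkln1os on the opposite strand stayed at 12.7 against 12.3 CPM.

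The ratios between genes of the locus restate the choice of the lincRNAs and are given as levels only. The ratio of Gm14532 reads to Gm13844 reads was 2.03 to 2.74 in control mice and 2.12 to 2.41 in CUS mice, so these ranges overlapped. Gm14532 had 0.129 to 0.163 reads per Mkln1 read in control mice and 0.262 to 0.287 in CUS mice. Per kb of gene span, Gm14532 had 1.46 CPM in control and 2.65 CPM in CUS mice, Gm13844 had 0.891 and 1.67 CPM, and Mkln1 had 1.34 and 1.27 CPM. On this scale Gm14532 had a level near that of Mkln1 in control mice, although whether the bulk counts include intronic reads is not given in the sources used here.

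The antisense lincRNA that shares the interval did not pass the threshold. Mkln1os was measured at 12.3, 12.0, 13.3 and 13.1 CPM in control mice and at 11.2, 12.53, 12.7, 12.98 and 12.0 CPM in CUS mice. These groups overlapped throughout, with a log2 fold change of -0.05 ± 0.07 (SE) and an FDR of 0.746 in edgeR's test. The 95% interval of this change ran from -0.20 to 0.10. Gm13844 reads per Mkln1os read went from 0.674 to 0.846 in control mice to 1.35 to 1.69 in CUS mice. The study's methods name a stranded library kit for the bulk RNA. The strand setting of the counting is not given in the sources used here, so it was not tested whether reads of one strand were counted for the gene on the other.

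Upstream on the same strand, 2210408F21Rik was higher in CUS mice. It was measured at 139, 154, 192 and 143 CPM in control mice and at 209, 199.7, 206, 199.8 and 199 CPM in CUS mice. The groups did not overlap, as in 4.06% of tested genes with CUS above control, but the third control mouse came close to the CUS mice. The log2 fold change was 0.37 ± 0.08 (SE) with an FDR of 0.0359 in edgeR's test. An FDR of 0.05 was passed by 3.29% of all tested genes. This quasi-likelihood call was fragile. Leaving out any of 7 of the 9 mice gave an FDR of 0.0560 to 0.0970. The exceptions were the third control mouse and the second CUS mouse. With all mice, edgeR's likelihood ratio test gave an FDR of 0.00311 and DESeq2 one of 0.00208.

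Neither coding neighbour passed the threshold in bulk. Mkln1 was measured at 151, 159, 154 and 169 CPM in control mice and at 147, 149.7, 151, 151 and 149 CPM in CUS mice. With TMM factors the highest CUS mouse fell just short of the lowest control mouse, and without them the groups overlapped (149.6 to 179.9 CPM against 145 to 153 CPM). The log2 fold change was -0.09 ± 0.05 (SE), with a 95% interval of -0.19 to 0.02 and an FDR of 0.346 in edgeR's test.

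Podxl was measured at 37.6, 39.2, 34.7 and 40.0 CPM in control mice. In CUS mice it was measured at 51.3, 40.1, 40.0, 44.6 and 41.8 CPM, so the first CUS mouse stood above the rest and the second and the third lay just above the highest control mouse. The log2 fold change was 0.20 ± 0.08 (SE), with a 95% interval of 0.03 to 0.37, and the FDR of 0.157 missed the threshold. The groups just failed to overlap with TMM factors and overlapped without them (33.6 to 42.5 CPM against 38.9 to 51.0 CPM). Groups that do not overlap were found in 4.06% of tested genes with CUS above control and in 4.7% with CUS below control, or 8.76% in either direction.

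The wider stretch of about a megabase to either side held 43 genes in the bulk files, of which 22 had enough reads to be tested. Of these, 4 passed an FDR of 0.05 with higher and 1 with lower levels in CUS mice, the chosen lincRNAs included, where 1.16% of all tested genes were called higher and 2.13% lower. Because 2 of the 5 calls are the genes that the same comparison chose, nothing is read from the count. The other calls were 2210408F21Rik, Plxna4 and Mest. Plxna4, a semaphorin co-receptor of the plexin family, had a log2 fold change of 0.41 ± 0.08 (SE) and an FDR of 0.0178 by edgeR. Mest, a paternally expressed imprinted gene, had a log2 fold change of -0.31 ± 0.07 (SE) and an FDR of 0.0428. The Mest call was lost when any of 6 of the mice was left out (all but the third and the fourth control and the second CUS mouse), and the Plxna4 call when the second control or the fourth CUS mouse was. On the other side of Podxl, Gm6117 had 0 to 17 reads per mouse and was not tested. The nearest tested gene there, the lincRNA Gm43154, was 41.2 kb away with a log2 fold change of 0.31 ± 0.13 (SE) and an FDR of 0.202. On the upstream side, Lncpint on the − strand had a log2 fold change of 0.07 ± 0.09 (SE) and an FDR of 0.698.

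**Figure D2:**
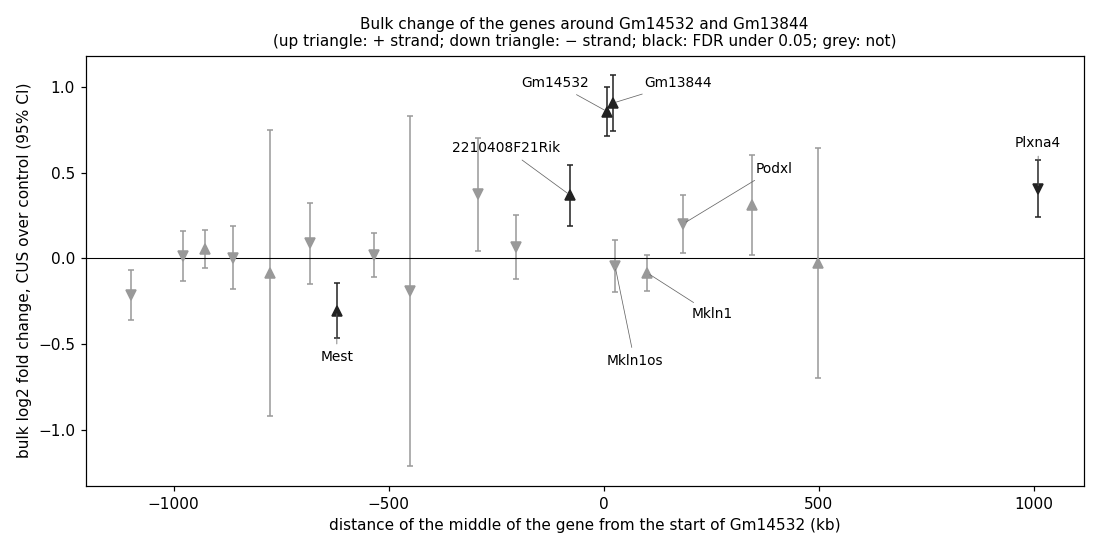
Bulk log2 fold change, CUS over control, with its 95% interval (y axis) against the distance of the middle of each tested gene from the start of Gm14532 in kb (x axis), microRNAs left out. Triangles pointing up are + strand genes and down − strand genes, and black marks an FDR under 0.05. Gm14532 (0.86) and Gm13844 (0.91), chosen by these values, are the highest points, and Mkln1os (-0.05) lies near 0 at the same place on the other strand.

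Bulk tissue is a mixture, in which fewer cells of a type and less RNA per cell cannot be told apart. Beside the lincRNAs, the summed neuron markers overlapped between groups (9522 to 11405 CPM in control and 10495 to 11848 CPM in CUS mice, 6 genes, none past the threshold). Scaled to these neuron marker reads, the log2 fold changes were 0.80 for Gm14532 and 0.86 for Gm13844. Of all tested genes 1.16% were higher and 2.13% lower. Of the excitatory neuron markers 1 of 4 was higher, with a median log2 fold change of 0.24. The layer 4 and layer 6 lists had 1 of 5 each lower, with medians of -0.20 and -0.37. Yet the summed layer 6 markers had means of 1033 CPM in control and 1166 CPM in CUS mice. Mature oligodendrocyte markers had 0 of 6 called, with a median of -0.51 and mean sums of 442 and 301 CPM. The claustrum list had 1 of 5 lower and the choroid plexus list 1 of 3 tested. The Vip interneuron list had 1 of 4 higher, and the Ndnf interneuron list 1 of 4 higher and 1 lower. Of the astrocyte markers 3 of 6 were lower, and of the differentiating oligodendrocyte markers 2 of 4 were lower, with no overlap in the sum (60.6 to 87.9 CPM against 51.7 to 58.7 CPM). Beside Podxl, the summed endothelial markers spanned 336 to 430 CPM in control mice and 391 to 440 CPM in CUS mice, and 0 of 6 passed. The part of these shifts in the changes along the locus was not tested.

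The partners of both coding genes were also followed in bulk. Of 11 genes of the CTLH list, which holds the subunits and relatives of muskelin's ubiquitin ligase, 1 fell and 0 rose past the same threshold, where 2.13% of all tested genes fell and 1.16% rose. The median log2 fold change of the list was -0.03, against 0.01 for all genes tested. The gene that fell was Gid4, the subunit that recognises substrates, with a log2 fold change of -0.31 ± 0.08 (SE) and an FDR of 0.0452. Of 6 genes of the podocalyxin list, 1 was higher and 0 were lower, against the same shares of all genes, with a median of 0.19. The members without a call lay on both sides of 0. Ezr, a linker of podocalyxin to actin, and Slc9a3r1, its scaffold, each had a log2 fold change of -0.28. Slc9a3r2 had one of 0.28 and Podxl2 one of 0.18. The gene called higher was Cd34, a relative of podocalyxin on endothelial and progenitor cells. It was at 34.2 ± 4.26 CPM in control and 44.4 ± 1.50 CPM in CUS mice (SD, n = 4 and 5). Its log2 fold change was 0.38 ± 0.07 (SE) with an FDR of 0.0216.

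The nuclei gave values for the same genes in other mice. The study reports a strong batch effect in its nuclei, but the labels assign no mouse to a batch, so the fits below hold no batch term. Summed over all kept nuclei, Gm14532 had 280 UMIs, Gm13844 698, Mkln1 9321 and Podxl 277. Of these, Mkln1 alone passed the study's filter of UMIs above 10% of the number of nuclei, so the other 3 were tested in a fit without that filter. Sums over nuclei are mixtures too. Marker sums without overlap were lower in CUS mice for inhibitory neurons (means of 999 CPM in control and 846 CPM in CUS mice). They were higher for Ndnf interneurons (247 and 275 CPM) and choroid plexus (16.8 and 86.1 CPM). Called higher were 5 of 6 endothelial, 2 of 5 mural and 1 of 5 choroid plexus markers. Without the filter 0.31% of all genes were called. The part of these shifts was not tested.

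Gm14532 was measured at 3.23, 6.01, 4.33 and 3.40 CPM of UMIs in control mice and at 2.62, 4.17, 4.59 and 3.80 CPM in CUS mice. The groups overlapped, with a control mouse the highest and a CUS mouse the lowest. The log2 fold change was -0.25 ± 0.26 (SE), with a 95% interval of -0.77 to 0.27 and an FDR of 0.776 by edgeR. In folds the interval ran from 0.588 to 1.21. The bulk fold, which chose this gene, serves as no measure for it. With any single mouse left out its upper end was at most 0.58 on the log2 scale.

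Gm13844 was measured at 9.03, 11.2, 10.98 and 11.1 CPM in control mice and at 6.54, 11.2, 11.6 and 11.2 CPM in CUS mice. These groups overlapped too, with the first mouse of either group below its 3 fellows. Fitted over all nuclei, the log2 fold change was -0.09 ± 0.19 (SE), the 95% interval -0.46 to 0.28 and the FDR 0.930 by edgeR. In folds the interval ran from 0.728 to 1.21, and with any mouse left out its upper end was at most 0.44 on the log2 scale. Of 5018 genes that passed the filter 0.0199% were called in the nuclei, and without the filter 0.31%.

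The lincRNAs also stood in a different proportion to each other. Nuclei held 0.308 to 0.537 Gm14532 UMIs per Gm13844 UMI in control mice and 0.339 to 0.400 in CUS mice, whereas bulk libraries held 2.03 or more reads of Gm14532 per read of Gm13844. Bulk reads scale with the length of an RNA whereas UMIs count tagged molecules, and sNucDrop-seq primes from poly(A) stretches whereas the bulk libraries came from ribosome-depleted total RNA, so these ratios are not on 1 scale. Within the nuclei the ratio did not differ between the groups beyond its range.

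Mkln1 was measured at 135, 153, 129 and 142 CPM in control mice and at 144, 154, 137 and 128 CPM in CUS mice, with full overlap. Its log2 fold change was 0.01 ± 0.10 (SE), the 95% interval -0.21 to 0.22 and the FDR 0.984 by edgeR.

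Podxl was measured at 3.07, 4.17, 4.57 and 3.40 CPM in control mice and at 5.76, 4.17, 3.87 and 3.61 CPM in CUS mice. The first CUS mouse was the highest, and the others lay within the control range. Its fitted log2 fold change was 0.12 ± 0.26 (SE), the 95% interval -0.40 to 0.64 and the FDR 0.930 by edgeR. That mouse also supplied 41 of the 79 Endothelial-like nuclei and 21 of the 36 Podxl UMIs in them, and its summed endothelial markers reached 136 CPM against 5.43 to 28.7 CPM in the control mice and 7.69 to 44.5 CPM in the other CUS mice. With Endothelial-like nuclei left out, Podxl was at 3.62 ± 0.785 CPM in control and 3.30 ± 0.454 CPM in CUS mice (SD, n = 4 each). The neighbours gave no call either: 2210408F21Rik, the upstream gene, had a log2 fold change of 0.09 ± 0.10 (SE) and an FDR of 0.764, and Mkln1os one of 0.07 ± 0.17 (SE) and an FDR of 0.930.

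**Figure D3:**
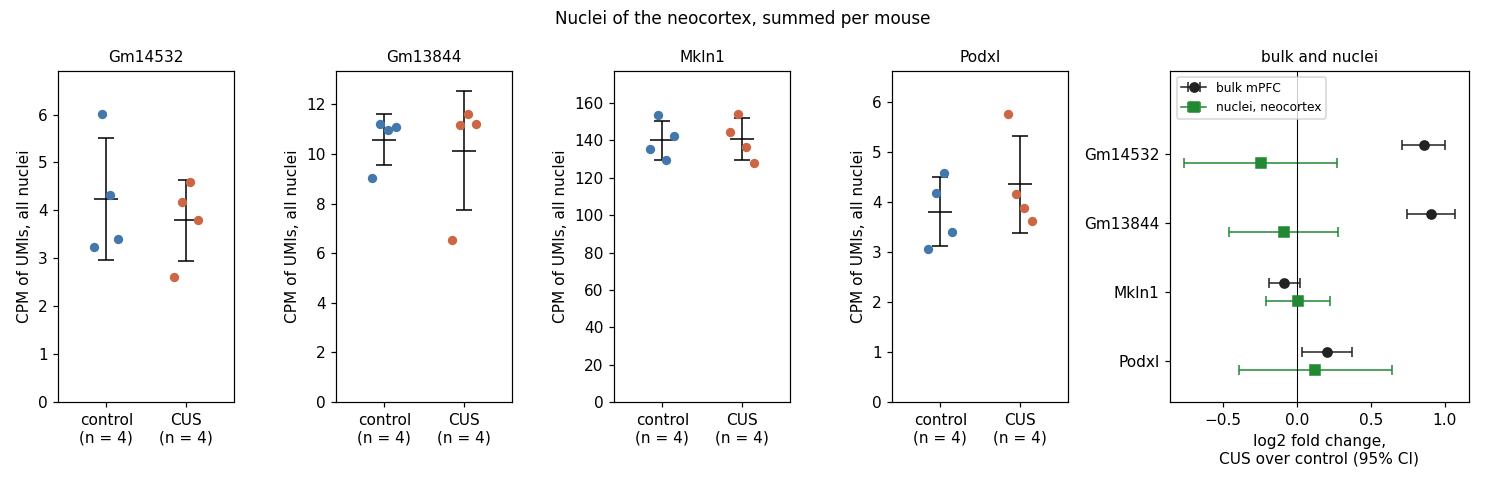
Left panels: CPM of UMIs summed over all nuclei of a mouse (y axis, from 0), each dot a mouse (blue, 4 control; orange, 4 CUS), with bars for mean and SD. Right panel: log2 fold change with 95% interval (x axis) of the 4 genes in bulk (black circles) and in nuclei (green squares). The groups overlap in all 4 nuclei panels, and the bulk values of both lincRNAs, which chose them, are drawn as a description.

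The share of nuclei with a UMI was compared after thinning each nucleus to 1000 UMIs, which kept 24285 nuclei. Gm14532 was found in 0.392% ± 0.161 of the nuclei of control mice and in 0.366% ± 0.129 of those of CUS mice (SD, n = 4 each, exact permutation p = 0.857). Gm13844 was found in 0.990% ± 0.0433 and 0.990% ± 0.217 (exact permutation p = 1.0). Mkln1 was found in 12.9% ± 1.17 and 12.7% ± 1.32 (exact permutation p = 0.8). Podxl was found in 0.333% ± 0.0531 and 0.450% ± 0.136 (exact permutation p = 0.114, 0.457 after adjustment over the 4 genes). The tests were two-sided, and 4 mice against 4 can give no p below 0.0286. No share differed beyond the spread between mice. Without thinning the shares of nuclei were 1.01%, 2.42%, 26.3% and 0.936% over all nuclei, at a median of 2010 UMIs.

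Across classes of nuclei the 4 genes had unlike patterns. The kept nuclei formed 27 clusters, 22 of them over 200 nuclei, and names ending in -like were given by markers to 10 neuronal, 5 glial and 1 endothelial cluster. Both lincRNAs had higher levels in the pooled neuronal classes, most of whose UMIs came from excitatory-like nuclei, than in the pooled glial ones. Over the 10 named neuronal classes Gm14532 had 195 UMIs or 4.63 CPM (95% Poisson interval 4.00 to 5.33, counting error only), and over the 5 glial classes 7 UMIs or 1.71 CPM (0.689 to 3.53). Those 7 UMIs came from 3 mice, so a count of mice says little for this gene. Gm13844 had 10.6 CPM (9.67 to 11.7) in neuronal classes and 4.405 CPM (2.61 to 6.96) in glial ones, and was higher in neuronal nuclei in 7 of 8 mice. In the pooled inhibitory-like classes and in Striatum-like nuclei the intervals overlapped the glial ones. Gm14532 had 3.76 CPM (2.19 to 6.02) in inhibitory-like and 3.42 CPM (1.91 to 5.63) in Striatum-like nuclei. Gm13844 had 9.51 CPM (6.88 to 12.8) and 6.83 CPM (4.61 to 9.75) in the same sets. These differences between classes were not tested.

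Among classes of over 200 nuclei, Gm14532 was highest in the Ex_L5-like class led by Gm2164 (23 UMIs, 7.28 CPM) and in the cluster led by Ctgf (11 UMIs, 6.63 CPM). Ex_L2/3_Enpp2-like nuclei, the upper-layer excitatory neurons, had 57 UMIs and 5.63 CPM. At the other end stood OPC-like nuclei, the oligodendrocyte precursors, with 0 UMIs, which allows up to 5.40 CPM by a limit of 3 counts (the two-sided Poisson interval ends at 6.64 CPM). A neuronal class was also low, as the Ex_L5-like class led by Tshz2 had 1 UMI and 1.08 CPM (interval 0.0274 to 6.02). The intervals of neighbouring classes overlapped along the whole order, so single ranks could not be told apart at this depth. In the 79 Endothelial-like nuclei its 2 UMIs gave 12.1 CPM with an interval of 1.47 to 43.8, too wide to be placed.

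Gm13844, pooled over mice, was highest in the cluster led by Ctgf (28 UMIs, 16.9 CPM, interval 11.2 to 24.4) and lowest in OPC-like nuclei (1 UMI, 1.80 CPM, interval 0.0456 to 10.0). The cluster led by Tshz2 (15.2 CPM), Claustrum-like nuclei (15 CPM) and the Ex_L5-like class led by Gm2164 (14.6 CPM) came next. This order was not stable, since the Ctgf cluster had 23.1 CPM in control and 8.31 CPM in CUS mice, and by the mean over mice the cluster led by Tshz2 was above it (20.4 against 15.7 CPM). The cluster led by Vip, a class of interneurons by its leading gene, had a pooled 3.92 CPM (1.58 to 8.08), with 1.64 CPM in control and 6.63 CPM in CUS mice from 7 UMIs. Ex_L2/3_Enpp2-like nuclei had 12.6 CPM (10.5 to 15.03). Astro-like nuclei, the astrocytes, had 4.43 CPM (1.78 to 9.14).

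Mkln1 had UMIs in every class, although background RNA in the droplets was not estimated. It ran the other way, with its highest pooled levels among classes of over 200 nuclei in microglia and astrocytes. Microglia-like nuclei had 208 CPM (interval 175 to 246) and Astro-like nuclei 206 CPM (184 to 229), against 123 CPM (113 to 134) in Striatum-like nuclei, the lowest class. The Microglia-like level was 245 ± 79.7 CPM in control and 149 ± 34.6 CPM in CUS mice (SD, n = 4 each), with 1 control mouse at 361 CPM, so its place at the top rests on the control mice. Astro-like nuclei had 211 ± 57.0 and 206 ± 58.7 CPM. Glial nuclei had more Mkln1 than neuronal nuclei in 8 of 8 mice, at 182 against 135 CPM, although Oligo-like nuclei, the mature oligodendrocytes, had only 138 CPM (117 to 161). The intervals of the remaining classes of over 200 nuclei largely overlapped between 126 and 173 CPM. By contrast 2210408F21Rik was higher in neuronal nuclei in 8 of 8 mice, at 113 against 69.99 CPM, and Mkln1os in 5 of 8.

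Podxl had its highest pooled level of all 27 clusters in the Endothelial-like cluster, of whose 79 nuclei 41 came from the first CUS mouse. In its 79 nuclei Podxl had 36 UMIs or 218 CPM (interval 153 to 302), and 32.9% of the nuclei had a UMI against 0.936% of all nuclei. Their median depth was 1478 UMIs. In Oligo-like nuclei, at a median of 1225 UMIs, 0.271% had a Podxl UMI. The pericyte gene Rgs5 and the endothelial gene Flt1 led this cluster, and Podxl was not among the markers that named it. In neurons Podxl was sparse. Ex_L2/3_Enpp2-like nuclei had 5.43 CPM (4.09 to 7.07) and Ex_L4-like nuclei, the layer 4 neurons, 1.31 CPM (0.525 to 2.69). In Inh_Sst-like interneurons it had 0 UMIs, which allows up to 1.79 CPM by the same limit of 3 counts (2.21 CPM by the Poisson interval).

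**Figure D4:**
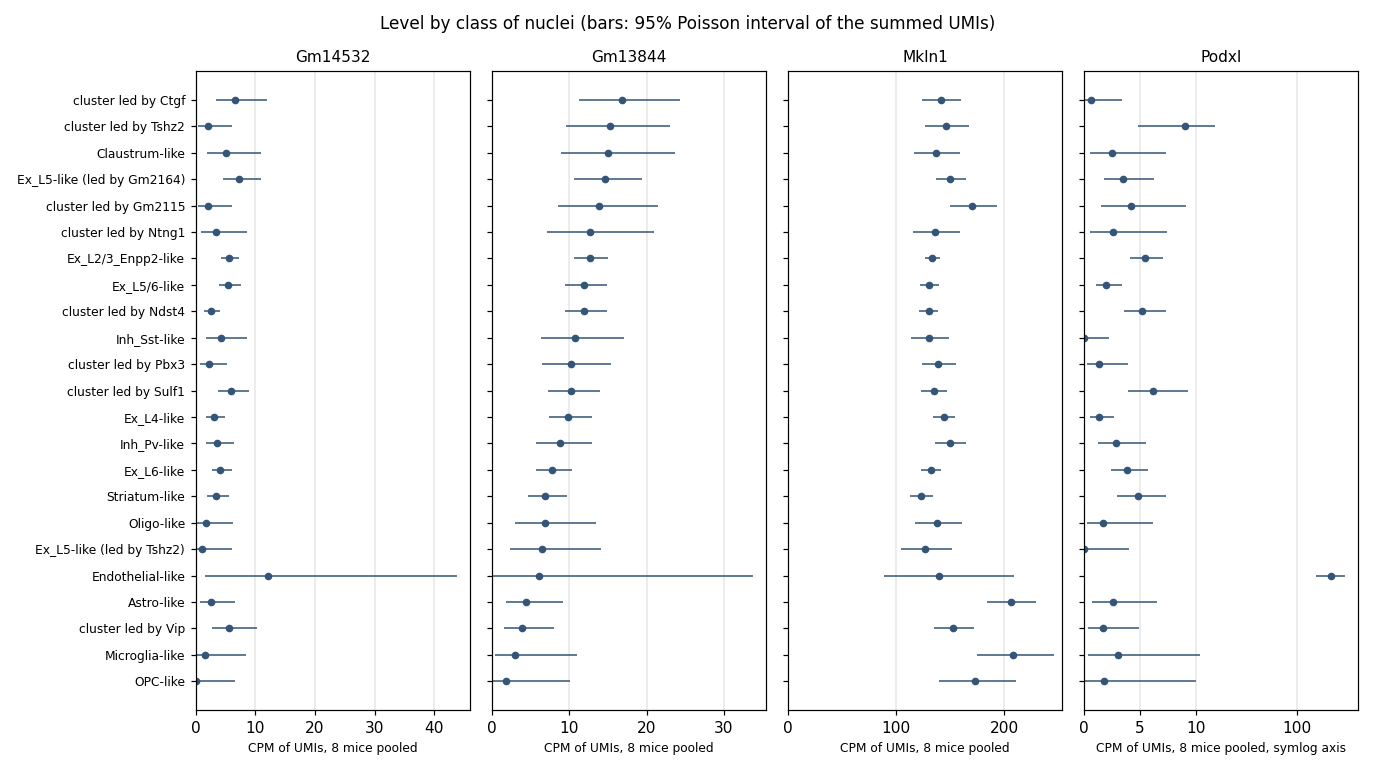
CPM of summed UMIs over 8 mice (x axis, the Podxl panel on a symmetric log axis) of the 4 genes in the 22 classes of over 200 nuclei and in Endothelial-like nuclei (y axis, ordered by Gm13844), with 95% Poisson intervals. Gm13844 runs from a pooled 16.9 CPM in the cluster led by Ctgf (23.1 CPM in control and 8.31 CPM in CUS mice) to 1.80 CPM in OPC-like nuclei, Mkln1 is highest in Microglia-like and Astro-like nuclei, and Podxl reaches 218 CPM in Endothelial-like nuclei.

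Within classes, the comparison of CUS and control mice could be tested for Mkln1, which passed the filter in all 22 classes of over 200 nuclei. It was called in 0 of them at an FDR of 0.2 by edgeR's quasi-likelihood test, and in 0 by the likelihood ratio test and by DESeq2, where 0.128% of all tests over classes made a call. At an unadjusted p under 0.05 there was 1 class, Microglia-like, with a log2 fold change of -0.72 ± 0.35 (SE) and an FDR of 1.0. With a mouse left out this change ran from -0.91 to -0.37, the latter without the second control mouse. Over the classes the changes of Mkln1 ran from -0.72 to 0.25, with 8 above 0 and 14 below. The upstream 2210408F21Rik passed the filter in 20 classes and was called in 0, with 10 changes above 0 and 10 below. It too had 1 class at an unadjusted p under 0.05, again Microglia-like, at 1.22 ± 0.45 (SE) with an FDR of 1.0.

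Gm14532, Gm13844 and Podxl passed the filter in no class. By group means, Gm14532 was higher in CUS mice in 8 and lower in 13 of the 22 classes, from at most 57 UMIs a class. Gm13844 was higher in 9 and lower in 13 classes, from at most 128 UMIs. In Ex_L2/3_Enpp2-like nuclei Gm14532 was at 5.88 CPM in control and 5.43 CPM in CUS mice, and Gm13844 at 10.8 and 14.6 CPM. Other classes went the other way for Gm13844. The Ex_L5-like class led by Gm2164 had 28.9, 13.3, 21.9 and 25.9 CPM in control mice and 6.76, 12.1, 5.24 and 9.41 CPM in CUS mice, which did not overlap, from 46 UMIs in all. The cluster led by Ntng1 had means of 22.0 and 6.95 CPM. These classes were picked after their values were seen, and none of these differences was tested.

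Each lincRNA had a UMI in few nuclei (Gm14532 in 1.01%, Gm13844 in 2.42%), so a UMI of both in the same nucleus was bound to be rare. Of 270 nuclei with a Gm14532 UMI, 6.30% also had a Gm13844 UMI, against 2.38% of the 26428 nuclei without. The former were deeper, with medians of 3122 and 1998 UMIs. After thinning to 1000 UMIs the shares were 2.13% of 94 and 1.00% of 24191 nuclei, and the former rests on so few nuclei that no difference can be read from it. Mkln1 was found in 13.8% and 12.7% of the same thinned nuclei.

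The genes with the most similar levels over the 22 classes were sought among 14435 genes that reached 10 CPM in at least 1 class, as a description over classes that share libraries and depth. Gm13844 was most like Gm31282 (Pearson r = 0.86), Trim39 (0.82), Cabin1 (0.80), Efcab12 (0.80) and Zdhhc24 (0.80). Mkln1 was most like Pon3 (0.90), Tnfaip8 (0.85), Smo (0.85), Acss1 (0.85) and Bco2 (0.85), among them Smo, the hedgehog signal transducer, and Pon3, a paraoxonase. Between Gm13844 and Mkln1 themselves r was -0.54. Gm14532 and Podxl did not reach 10 CPM in any class of this size.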

How the data were processed

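Nuclear RNA of mPFC punches was sequenced after ribosomal RNA depletion, and the authors aligned reads with STAR to mm10 and deposited raw counts per gene. For sNucDrop-seq the authors deposited UMI counts per gene and nucleus, exonic and intronic. No normalization was applied before deposit. The 4 genes and all lists were chosen with earlier results of these data known. Bulk counts were tested with edgeR 4.0.16 (quasi-likelihood, TMM factors, filterByExpr, FDR 0.05) on control and CUS mice, with each mouse a replicate. Nuclei with 600 to 5000 genes, at most 5% mitochondrial UMIs and a doublet score up to 0.2 were kept, clustered with scanpy 1.11.5 (resolution 1.0) and named by markers. UMIs were summed per mouse and tested by edgeR, over genes with UMIs above 10% of nuclei (FDR 0.05, or 0.2 within classes of over 200 nuclei). The study reports a profound batch effect in its nuclei tests and fitted batch there. The labels do not assign batches to mice, so no batch term was fitted here and the part of batch was not tested. Shares were compared by exact permutation tests. Named genes are the 4, the genes beside them, calls within about a megabase, calls of both lists, and the 5 most similar genes. Lncpint, Ezr, Slc9a3r1, Slc9a3r2, Podxl2, Rgs5 and Flt1 were named after their values were seen. Poisson intervals and count limits cover counting error only. Standard errors and intervals of log2 fold changes were built here from edgeR's fitted coefficients and variances and hold the spread between mice. The tests were checked on simulated counts. Alternatives were other scalings, filters, tools, cluster resolutions, a replicate block and leaving out each mouse.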

Additional observations from a re-analysis of the deposited data

Results flagged for a closer look

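Of 38 groups of per-mouse values screened for a sample far from the others, 2 held one, and chance alone flags about 1 in 20 groups. Both concern Gm13844 in nuclei. The lowest control mouse, the first, had 9.03 CPM, while the next lowest had 10.98 CPM. The lowest CUS mouse, also the first of its group, had 6.54 CPM, and the next lowest had 11.2 CPM. Without that CUS mouse the log2 fold change of Gm13844 turned from -0.09 to 0.07, and it remained without a call.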

How the results depend on the processing

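In bulk the log2 fold changes of the lincRNAs, whose direction the choice of these genes fixed, ran under the 7 other settings from 0.80 to 0.88 for Gm14532 and from 0.86 to 0.95 for Gm13844, and with each mouse left out from 0.81 to 0.90 and from 0.87 to 0.95. Mkln1 (-0.11 to -0.04) and Podxl (0.14 to 0.24) stayed without a call with any mouse left out. The number of bulk genes called was 606, but 1330 by the likelihood ratio test, 1413 by DESeq2 and 133 to 1508 with a mouse left out, so percentages of genes called rest on single mice (133 without the second and 1508 without the third control mouse, and 352, 316, 148 and 140 without CUS mice 1, 3, 4 and 5). 2210408F21Rik was not called when scaled to neuronal markers (0.32, FDR 0.0658 by edgeR). The cause of these shifts was not tested. Same-numbered mice did not deviate together in every pair (r of 0.03, 0.23, 0.04 and 0.13 in bulk and 0.36, -0.07, 0.40 and -0.45 in nuclei). So few and mixed values cannot decide whether the numbers pair the mice. With a replicate block the bulk count was 238, and the log2 fold changes were 0.88 for Gm14532, 0.95 for Gm13844, -0.08 for Mkln1 and 0.21 for Podxl, with nuclei values of -0.17, -0.10, 0.01 and 0.15. Under the block 2210408F21Rik (0.39, FDR 0.0545 by edgeR) and Mest (-0.28, FDR 0.0803) lost their calls.

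In nuclei, directions near 0 turned without any call. Mkln1 was at -0.0116 with doublets kept and at -0.0144 without a filter on low counts, and Mkln1os was at -0.0208 with at least 1000 genes per nucleus. With a mouse left out, Gm14532 ran from -0.37 to -0.01, Gm13844 from -0.177 to 0.0713, Mkln1 from -0.0745 to 0.0812, Podxl from -0.0433 to 0.234 and Mkln1os from -0.0268 to 0.127. Podxl turned without the first CUS mouse. Differences in share, CUS minus control, turned to 0.0726 (Gm14532), 0.438 (Mkln1) and -0.0122 (Podxl) percentage points when thinned to 2000 UMIs, and to -0.0626 for Podxl without thinning. Ordered by thinned shares, 3 of the 5 highest classes of Gm14532 and 3 of those of Gm13844 were shared with the order by CPM. Without the filter on low counts 113 genes were called in nuclei by the quasi-likelihood test, 2 by the likelihood ratio test and 1 by DESeq2. UMIs of the lincRNAs limit any statement on single classes.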
